A study of Mus musculus with 4 samples.

Results

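The Wnt pathway was described through 44 genes: 19 Wnt ligands, 10 Frizzled receptors, 2 co-receptors, 6 secreted inhibitors, 4 cytoplasmic regulators and 3 nuclear effectors. They were chosen by symbol, without regard to case (the files write them as WNT3, FZD6, LRP5, AXIN2 or CTNNB1). The rule used no measured value, but earlier results of these data were known when the genes were chosen. All 44 were found in each of 4 spatial transcriptome matrices, among 20800 to 21639 listed genes. Of all genes, 19783 were listed in all 4 sections.

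The sections came from mouse brain organoids grown for 3 months from CARLIN/Cas9 embryonic stem cells, a genotype and cell line that all 4 groups share. From day 9 the organoids had either B27 supplement with vitamin A at 2% (VitaminA), all-trans retinoic acid at 1 µM (ATRA), BMS753 at 1 µM (BMS753), or BMS961 with BMS641 at 0.1 µM (BMS961+BMS641), so the last group was dosed lower than the other retinoids. All-trans retinoic acid activates every retinoic acid receptor, and the BMS compounds are known as agonists that prefer single receptor subtypes. Each group was 1 section on a barcoded poly-T array, with 552, 593, 469 and 365 spots in that order, which is also the order of values given below without names, and a mold held several organoids, so a section may hold more than 1. With 1 section per group no difference was tested; every ratio compares 2 sections, and the spread given is that between the 4 quadrants of a section, which are not replicates.

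Wnt ligands are secreted, lipid-modified proteins that bind a Frizzled receptor together with the co-receptor Lrp5 or Lrp6. In the canonical branch this stops the destruction complex, built on Axin, from marking beta-catenin for degradation, and beta-catenin then acts with Tcf and Lef factors on target genes, several of which feed back to dampen the signal. In the developing brain the pathway is known for patterning, in part from the dorsal midline, and for the balance of progenitor growth and differentiation.

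The deposited signal was quantile normalised, and a gene counted as detected in a spot where it lay above the lowest class of tied values of that spot, which was treated as 0. The level of a gene is its share of a section's signal above that class, in ppm. The median spot held 4659, 3388, 3330 and 4462 genes above the class. Read depth is unknown, since no counts are given. A section holds many cell types, so fewer cells of a type and less RNA per cell cannot be told apart. Of 10 neuron markers, 9 to 10 were detected in a section, with a median of 29.2% to 57.2% of spots, while of the 9 genes of a neural progenitor list, 7 to 8 were listed in a section and 3 to 5 detected.

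Most Wnt genes were measurable, and the ligands were detected in more spots than the Frizzled receptors. In VitaminA 39 of the 44 were above the lowest class in at least 5% of spots, against 70.1% of all listed genes. ATRA had 33 (all genes 61.0%), BMS753 37 (64.5%) and the BMS961+BMS641 section 34 (68.4%). By role, the median share of spots in the 4 sections in the order above was 20.1%, 16.4%, 18.8% and 24.7% for ligands and 7.25%, 2.95%, 4.69% and 3.84% for Frizzled receptors. The 28 genes above the class in at least 20% of spots of any section are described 1 by 1 or by their ratios, and the other 16 by ranges.

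**Figure D1:**
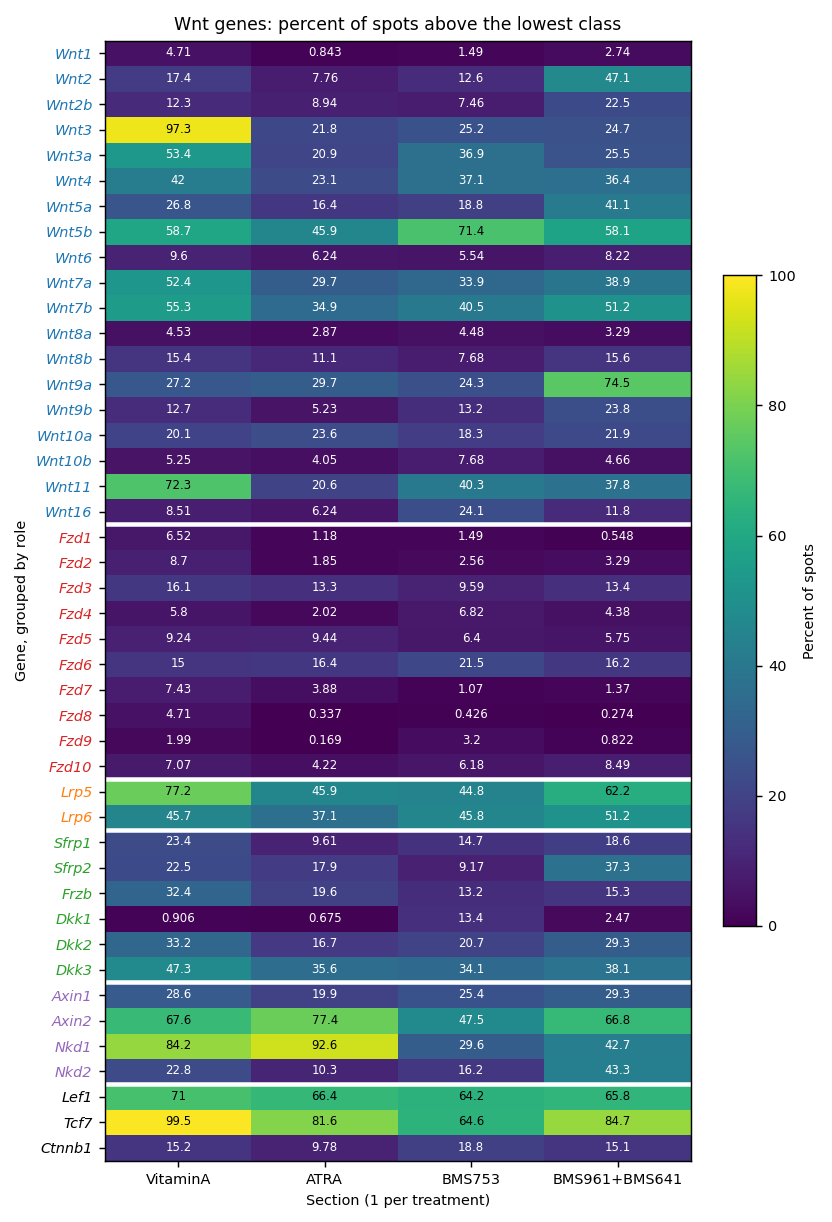
Each row is a Wnt gene, grouped by role (ligands blue, Frizzled receptors red, co-receptors orange, secreted inhibitors green, cytoplasmic regulators purple, nuclear effectors black), and each column a section; colour and number give the percent of spots where the gene was detected. Wnt3 at 97.3% in VitaminA, Nkd1 at 92.6% in ATRA, Wnt5b at 71.4% in BMS753 and Wnt9a at 74.5% in BMS961+BMS641 stand out, and the Frizzled block is dark throughout.

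Among the ligands, Wnt3, a canonical ligand first known from mammary tumours and required for the early body axis, separated the vitamin A section from the rest. Its level was 464 ppm with vitamin A, 18.3 ppm with ATRA, 32.9 ppm with BMS753 and 13.3 ppm with BMS961+BMS641. It was above the lowest class in 97.3% of VitaminA spots (exact binomial 95% interval 95.6% to 98.5%, counting error only), and in 21.8% (18.5% to 25.3%), 25.2% (21.3% to 29.3%) and 24.7% (20.3% to 29.4%) of the others. The lowest VitaminA quadrant held 415 ppm and the highest quadrant of any other section 37.4 ppm, so the quadrants did not overlap. The log2 ratio to VitaminA was -4.59 (quadrant pairs -5.18 to -4.16) for ATRA, -3.78 (-4.13 to -3.44) for BMS753 and -5.02 (-5.42 to -4.47) for the BMS961+BMS641 section. These 3 ratios share the VitaminA section. Quadrants without overlap were common among all genes measured. Against VitaminA, 44.0% of all genes were lower in this way in ATRA and 13.3% higher. The shares were 17.1% and 22.4% in BMS753, and 40.1% and 14.7% in BMS961+BMS641. Of the Wnt genes measured, 19 of 36, 10 of 40 and 17 of 35 were lower in this way, and 3, 9 and 4 higher. Between BMS753 and ATRA, 40.4% of all genes were higher in this way in BMS753 and 10.4% lower, and 21 and 2 of 36 Wnt genes. Quadrants above those of every other section were held by 6, 2, 7 and 2 of the 44 genes in the 4 sections. The share of all genes with such quadrants was not counted. Wnt3 alone made up 47.7% of the ligand sum of 974 ppm in VitaminA. Without it the sum was 510 ppm there, against 264, 631 and 423 ppm elsewhere.

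Wnt11, a ligand best known for beta-catenin-independent signalling in cell movement, was also highest in VitaminA. Its level was 101 ppm there and 13.5, 57.3 and 19.7 ppm in the other sections. The VitaminA quadrants (88.6 to 108 ppm) lay above all others, and the ratio to VitaminA was -2.82 in ATRA and -2.30 in BMS961+BMS641 on the log2 scale. Wnt3a, the canonical ligand of the cortical hem, followed another order. Its levels of 61.6 ppm in VitaminA and 54.0 ppm in BMS753 had overlapping quadrants, and 19.0 ppm in ATRA and 13.2 ppm in BMS961+BMS641 lay below both. ATRA and BMS961+BMS641 overlapped slightly, with quadrants of 16.4 to 23.1 ppm and 10.9 to 16.8 ppm. A marker list of roof plate, cortical hem and choroid plexus summed to 438, 342, 490 and 793 ppm, with 7 to 9 of its 12 genes detected (11 were listed in BMS961+BMS641). Lmx1a alone made up 500 ppm of the last sum, and without it the sums were 335, 252, 362 and 293 ppm. Its part in the Wnt3a levels was not tested.

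The BMS753 section was highest for 2 ligands whose quadrants stood apart. Wnt5b, which acts mostly without beta-catenin, measured 62.7 ppm with vitamin A, 47.0 ppm with ATRA, 205 ppm with BMS753 and 47.3 ppm with BMS961+BMS641. The log2 ratio was 1.69 against VitaminA (quadrant pairs 1.31 to 2.09) and 2.10 against ATRA (1.66 to 2.38). Wnt16, a ligand known from bone and blood stem cell formation, was at 3.17 ppm with vitamin A, 1.76 ppm with ATRA, 19.4 ppm with BMS753 and 4.98 ppm with BMS961+BMS641. It reached 24.1% of BMS753 spots and between 6.24% and 11.8% of those of the other sections, and its ratio of 2.30 against VitaminA carried a wide range over quadrant pairs, 1.37 to 3.18.

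In BMS961+BMS641 the ligands that stood apart were Wnt9a, which takes part in joint and blood development, and Wnt2, known from lung and midbrain dopaminergic development. Wnt9a was at 27 ppm with vitamin A, 26.1 ppm with ATRA, 31.6 ppm with BMS753 and 112 ppm with BMS961+BMS641, and 74.5% of BMS961+BMS641 spots held it (95% interval 69.7% to 78.9%). Wnt2 was at 7.52 ppm with vitamin A, 3.26 ppm with ATRA, 10.3 ppm with BMS753 and 32.5 ppm with BMS961+BMS641. For both, the lowest BMS961+BMS641 quadrant (91.1 ppm for Wnt9a and 25.2 ppm for Wnt2) exceeded every quadrant of the other sections, and the log2 ratios to VitaminA were 2.01 and 1.98. In the same section an epithelial marker list summed to 1690 ppm, against 116 to 196 ppm in the others, led by Epcam at 987 ppm and Cdh1 at 538 ppm. Of its 7 genes, 6 were detected there and 4 to 6 in the others. The keratin genes did not share this contrast: Krt8 was at 4.03 ppm there and 45.4 ppm in VitaminA, Krt18 at 3.85 ppm there and 5.65 ppm in BMS753, and Krt5 at 0.389 ppm there and 0.930 to 2.26 ppm in the others. The part of these markers in the ligand levels was not tested.

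For the other ligands the quadrants of the highest section overlapped those of another section. Wnt7a and Wnt7b, forebrain ligands that also act on brain vessels, were at 39.3 to 56.8 ppm and 29.0 to 60.3 ppm, and Wnt4, active in kidney and gonad formation, at 25.9 to 58.7 ppm. Wnt7a levels were uneven inside 2 sections, with quadrants from 17.3 to 85.3 ppm in ATRA and from 17.3 to 99.4 ppm in BMS961+BMS641, against 52.0 to 63.9 ppm in VitaminA. Its detection varied less, at 26.5% to 32.9% of spots over the ATRA quadrants and 22.6% to 51.2% over those of BMS961+BMS641. The level spread in ATRA thus lay in signal per spot more than in the number of spots. Of the ATRA spots with Wnt7a, 68.8% lay in the first class above the lowest, while the highest class reached was 33. The highest class was 50 in BMS961+BMS641, 18 in VitaminA and 8 in BMS753. How many spots carried the spread was not counted. Wnt5a, the prototype of beta-catenin-independent ligands, ranged from 10.7 ppm in ATRA to 29.3 ppm in BMS961+BMS641, whose quadrants overlapped those of BMS753. Wnt10a, a ligand of skin appendages and teeth, was at 13.5 to 25.8 ppm. Wnt2b and Wnt9b, known from eye and kidney, were at 5.94 to 12.5 ppm and 2.54 to 11.3 ppm. Wnt1, Wnt6, Wnt8a, Wnt8b and Wnt10b stayed between 0.0446 and 10.1 ppm and between 0.843% and 15.6% of spots. Wnt1, the ligand of the midbrain-hindbrain boundary, was in 26 of 552 VitaminA spots and 5 of 593 ATRA spots.

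**Figure D2:**
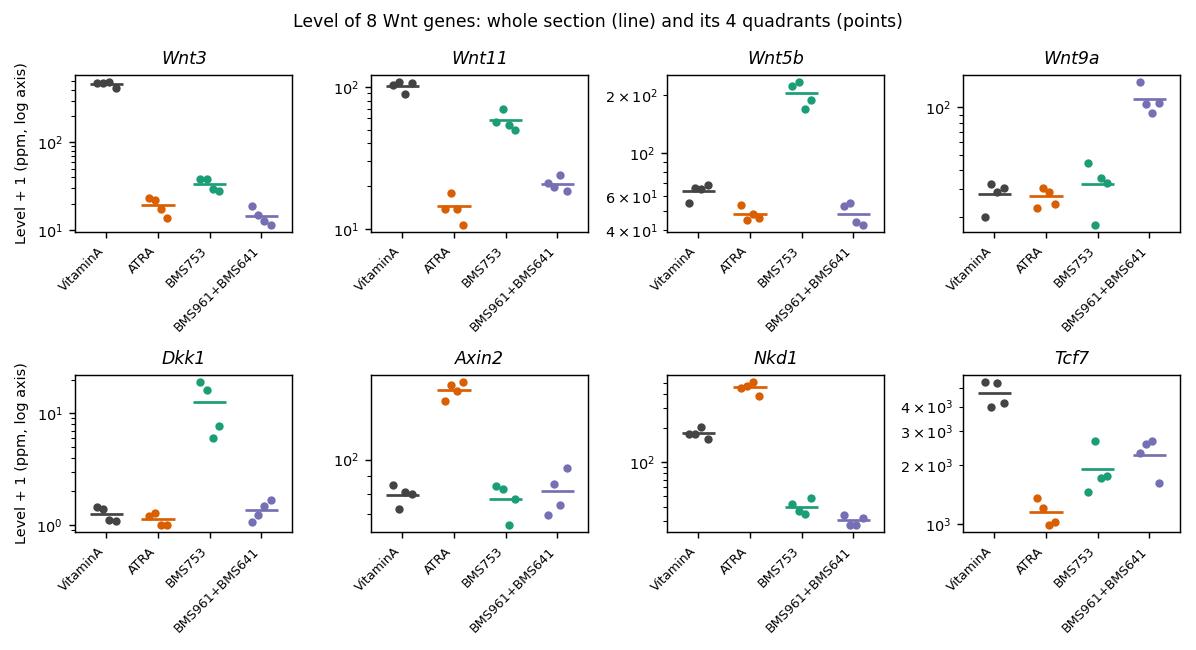
Level plus 1 in ppm on a log axis for 8 Wnt genes; the line is the whole section, the 4 points its quadrants, and the columns are the sections. The panels show only genes where the quadrants of the highest section lie above all others. Examples are Wnt3 in VitaminA (415 to 492 ppm) and Wnt9a in BMS961+BMS641 (91.1 to 145 ppm). Of the 44 genes, 6, 2, 7 and 2 had such quadrants in the 4 sections, so the panels do not stand for all Wnt genes.

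The Frizzled receptors, the membrane proteins that bind Wnt directly, were detected in few spots of every section. Only Fzd6 passed 20% of spots in any section, at 15.0%, 16.4%, 21.5% and 16.2%, with levels of 7.20, 7.74, 17.7 and 7.15 ppm. The BMS753 quadrants (12.1 to 22.0 ppm) lay above those of VitaminA and ATRA, whose highest held 10.3 ppm, and overlapped those of BMS961+BMS641 (5.04 to 12.6 ppm). The other 9 lay between 0.169% and 16.1% of spots, with Fzd3, a receptor of axon guidance and planar polarity, at the upper end in VitaminA. At least 1 Frizzled gene was above the lowest class in 56.0% of VitaminA spots, 38.4% of ATRA spots, 43.3% of BMS753 spots and 146 of 365 BMS961+BMS641 spots. At least 1 ligand was found in 99.8%, 90.7%, 94.9% and 98.1% of spots. The ligand list is longer, with 19 genes against 10, so these shares are not like for like. Most Frizzled genes are also short, and detection followed gene span, as given below. Spots with a ligand, a Frizzled and a co-receptor made up 49.8%, 27.5%, 32.4% and 35.3%.

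The co-receptors were found more widely. Lrp5 was at 143 ppm with vitamin A, 61.8 ppm with ATRA, 100 ppm with BMS753 and 80.0 ppm with BMS961+BMS641. Only ATRA was at least 2-fold lower than VitaminA (log2 ratio -1.20). The median ratio of all genes measured in that comparison was -0.60, and relative to it Lrp5 was at -0.60. Lrp6 was at 48.6 ppm with vitamin A, 35.7 ppm with ATRA, 70.0 ppm with BMS753 and 46.5 ppm with BMS961+BMS641. BMS753 was highest for Lrp6 with quadrants of 62.9 to 78.7 ppm, above the quadrants of the other sections, though within 2-fold of each.

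Secreted inhibitors hold Wnt away from its receptors (Sfrp1, Sfrp2 and Frzb) or block the co-receptor (Dkk1 and Dkk2), while the role of Dkk3 in the pathway is less direct. Sfrp2 was at 20.6 ppm with vitamin A, 14.0 ppm with ATRA, 9.55 ppm with BMS753 and 34.2 ppm with BMS961+BMS641. Its quadrants in BMS961+BMS641 (25.7 to 44.1 ppm) overlapped only those of VitaminA (17.1 to 27 ppm). Frzb levels varied widely inside a section, with ATRA quadrants from 10.7 to 68.9 ppm around a level of 24.3 ppm. Frzb detection varied less there, at 13.9% to 27.9% of spots over the quadrants. Dkk2 was at 16.2 to 36.9 ppm, Dkk3 at 30.3 to 53.5 ppm and Sfrp1 at 6.92 to 20.9 ppm, each lowest in ATRA except Dkk3, lowest in BMS961+BMS641. Dkk1 falls outside the genes described in full and is named after its values were seen. It was in 5 of 552 VitaminA spots, 4 of 593 ATRA spots, 63 of 469 BMS753 spots and 9 of 365 BMS961+BMS641 spots, at 0.260, 0.134, 11.7 and 0.370 ppm. In BMS753 it was detected in 13.4% of spots (95% interval 10.5% to 16.9%), with quadrants from 5.04 to 18.1 ppm.

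Axin2, Nkd1 and Dkk1 are known feedback inhibitors that canonical signalling itself induces. Their RefSeq upstream sequences are shown because the sections differed in these genes and because such feedback is read through Tcf and Lef sites. The 250 bases before each annotated start (build GRCm38.p6, on the strand of the gene, 5′ to 3′) are at chr11:108920099-108920348 on the plus strand for Axin2, chr8:88527383-88527632 on the plus strand for Nkd1 and chr19:30549497-30549746 on the minus strand for Dkk1. Capitals mark matches to a Tcf and Lef word, CTTTG followed by any pair of the letters A and T, or to a half-site word of retinoic acid receptors, AGGTCA or alternatively GGTTCA, on either strand.
Axin2: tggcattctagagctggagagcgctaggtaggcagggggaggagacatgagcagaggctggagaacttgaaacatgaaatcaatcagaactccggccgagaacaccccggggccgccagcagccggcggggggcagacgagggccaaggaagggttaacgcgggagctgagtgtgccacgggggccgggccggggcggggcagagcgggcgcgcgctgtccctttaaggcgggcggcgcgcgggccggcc
Nkd1: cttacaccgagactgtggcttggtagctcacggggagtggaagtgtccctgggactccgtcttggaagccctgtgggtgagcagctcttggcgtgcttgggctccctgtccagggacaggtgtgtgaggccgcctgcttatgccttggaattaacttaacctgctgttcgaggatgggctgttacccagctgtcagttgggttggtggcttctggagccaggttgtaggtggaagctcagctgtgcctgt
Dkk1: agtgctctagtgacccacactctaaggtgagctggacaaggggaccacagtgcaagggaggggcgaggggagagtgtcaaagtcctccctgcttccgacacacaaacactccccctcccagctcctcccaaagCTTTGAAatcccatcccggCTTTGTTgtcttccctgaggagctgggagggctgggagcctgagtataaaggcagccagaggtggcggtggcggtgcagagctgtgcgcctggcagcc
Dkk1 has 2 Tcf and Lef words, starting at -117 and -98 relative to the start, and the other sequences hold no match. Of 32851 promoter windows of 250 bases in the table, 14.8% hold a Tcf and Lef word and 21.5% a half-site word; of 39 windows of the 31 Wnt genes matched, 5 hold the first and 5 the second. The word GGTTCA can overlap a Tcf and Lef word read on the opposite strand. A match is a description of letters only, and a window without one says nothing about sites elsewhere.

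Among the cytoplasmic regulators, Nkd1, which binds Dishevelled, was at 178 ppm with vitamin A, 457 ppm with ATRA, 39.1 ppm with BMS753 and 29.8 ppm with BMS961+BMS641. No quadrant of ATRA (382 to 506 ppm) or of VitaminA (157 to 203 ppm) overlapped any of the other sections. The quadrants of BMS753 held 33.8 to 47.0 ppm, and those of BMS961+BMS641, at its lower dose, 26.9 to 33.4 ppm. The log2 ratio to VitaminA was 1.35 for ATRA, -2.16 for BMS753 and -2.54 for BMS961+BMS641, and BMS753 was 11.4-fold lower than ATRA at the same dose. Axin2, a scaffold of the destruction complex and a common readout of canonical signalling, was at 78.5 ppm with vitamin A, 157 ppm with ATRA, 76.4 ppm with BMS753 and 80.7 ppm with BMS961+BMS641. Its ATRA quadrants (146 to 165 ppm) lay above all others and the other 3 sections overlapped. The ratio of ATRA to VitaminA was 0.99, just under 2-fold, and that of BMS753 to ATRA -1.03. Nkd2, the relative of Nkd1, was lowest in ATRA, at 6.83 ppm against 22.3, 20.5 and 30.7 ppm, and Axin1, the constitutive scaffold, was at 17.9 to 36.4 ppm.

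Of the nuclear effectors, Tcf7, a Tcf factor known from T cells and early mesoderm, was at 4688 ppm with vitamin A, 1146 ppm with ATRA, 1901 ppm with BMS753 and 2251 ppm with BMS961+BMS641. It made up 48.1% to 72.5% of the signal of all 44 genes, which is a share of signal and not corrected for length. The VitaminA quadrants (3967 to 5356 ppm) lay above all others, and the ratio to VitaminA was -2.03 for ATRA, -1.30 for BMS753 and -1.06 for BMS961+BMS641. Lef1, whose factor acts on the same sites, was at 83.9 ppm with vitamin A, 82.8 ppm with ATRA, 115 ppm with BMS753 and 57.8 ppm with BMS961+BMS641 and within 2-fold in all 3 comparisons with VitaminA. Ctnnb1, the gene of beta-catenin, was at 11.7 ppm with vitamin A, 6.20 ppm with ATRA, 19.6 ppm with BMS753 and 6.05 ppm with BMS961+BMS641, in 9.78% to 18.8% of spots. Beta-catenin is regulated as a protein, which these data do not measure.

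**Figure D3:**
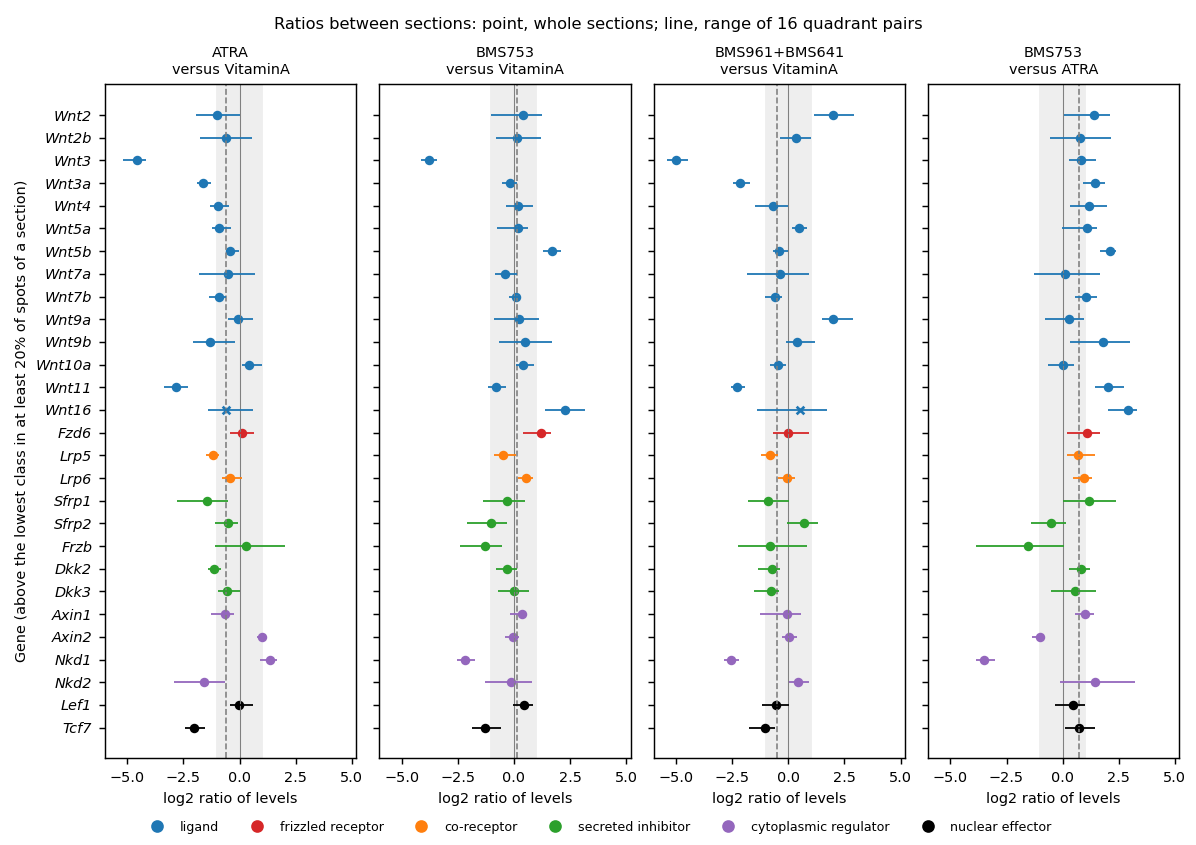
Log2 ratios of levels for the 28 genes described in full, coloured by role, in 4 comparisons; lines are the range over 16 quadrant pairs, the shaded band is within 2-fold, the dashed line is the median of all genes, and crosses mark genes under 5 ppm in both sections. Wnt3 lies far left in the 3 comparisons with VitaminA (-4.59, -3.78 and -5.02), and Nkd1 changes side, from 1.35 with ATRA to -2.54 with BMS961+BMS641.

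The counts of Wnt genes past 2-fold are set beside the share of all genes past it, and none of them was shown to be particular to the Wnt genes. Against VitaminA, 36 of the 44 reached 5 ppm in either section with ATRA, of which 1 was at least 2-fold higher (Nkd1) and 12 at least 2-fold lower; over all genes 9.58% were higher and 31.9% lower. Their median log2 ratio was -0.80 and that of all genes -0.60. Taken relative to the all-gene median, 3 were higher and 6 lower, a different split. The 12 were 5 ligands, 2 Frizzled receptors, 1 co-receptor, 2 secreted inhibitors, Nkd2 and Tcf7. Among them, Wnt6, Wnt9b, Fzd1 and Fzd8 reached 5 ppm only in VitaminA, so they could not be called higher. Relative to that median, Wnt3 was at -3.99, Wnt11 at -2.22, Axin2 at 1.58 and Nkd1 at 1.95.

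In BMS753 against VitaminA, 6 of 40 were higher (all genes 13.9%) and 8 lower (12.6%), with a median of 0.03 for the Wnt genes and 0.14 for all genes. The higher genes were Wnt5b, Wnt16, Fzd4, Fzd6, Fzd9 and Dkk1, and the lower ones Wnt3, Fzd1, Fzd7, Fzd8, Sfrp2, Frzb, Nkd1 and Tcf7. The Frizzled genes thus split 3 to 3, at levels of at most 17.7 ppm, and of them only Fzd6 reached 5 ppm in both sections. Fzd4 was in 32 spots of either section, Fzd9 in 15 BMS753 and 11 VitaminA spots, and Fzd8 in 2 and 26. Of the deposited BMS753 signal of Fzd9, 75.5% lay in the class set to 0. Fzd1 turns direction on the values as deposited, from a log2 ratio of -1.35 to 0.66, since 90.5% of its deposited BMS753 signal lay in the class set to 0. The split of 6 to 8 was 2 to 7 on the percent of spots and 7 to 6 on the values as deposited.

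In BMS961+BMS641 against VitaminA, 2 of 35 were higher (all genes 10.9%), Wnt2 and Wnt9a, and 9 lower (29.0%), with medians of -0.58 and -0.51. The lower genes were the ligands Wnt3, Wnt3a and Wnt11, the receptors Fzd1, Fzd3, Fzd7 and Fzd8, and Nkd1 and Tcf7. Fzd1, Fzd7 and Fzd8 reached 5 ppm only in VitaminA (6.72, 5.33 and 5.01 ppm), so they could not be called higher. They were in 36, 41 and 26 of 552 VitaminA spots and in 2, 5 and 1 of 365 BMS961+BMS641 spots. Relative to the all-gene median the split was 3 to 7.

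BMS753 and ATRA were given at the same dose and were set against each other directly. Of 36 genes, 16 were at least 2-fold higher in BMS753 (all genes 36.2%) and 3 lower (8.57%), with medians of 0.97 and 0.72. Relative to the all-gene median, 7 were higher and 4 lower. The 16 included 9 ligands, among them Wnt11 at 2.01, Wnt5b at 2.10 and Wnt16 at 2.89. The 3 lower ones were Nkd1 at -3.51, Frzb at -1.56 and Axin2 at -1.03. Of these 3, Frzb had overlapping quadrants, with quadrant pairs from -3.86 to 0.04. This comparison uses the same ATRA and BMS753 sections as those above.

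Another 65 genes of the pathway, listed by role with earlier results of these data known, give the surroundings. With ATRA 7 of 60 were at least 2-fold higher than in VitaminA (all genes 9.58%) and 21 lower (31.9%). Among genes at 20 ppm or more in either section, the higher ones were led by Kremen1, a Dkk receptor, at 26.3 ppm in VitaminA and 633 ppm in ATRA, by Porcn, which lipid-modifies Wnt, at 17.8 and 168 ppm, and by Rnf43, a ligase that removes Frizzled from the surface, at 33.3 and 292 ppm. The Wnt agonist Rspo2, which acts through Lgr receptors, was at 267 ppm in VitaminA and at 46.2, 48.1 and 46.9 ppm in ATRA, BMS753 and BMS961+BMS641. Cdx1, a caudal homeobox gene and known target of both Wnt and retinoic acid, was at 58.8 ppm in VitaminA and at 5.60, 11.5 and 3.70 ppm in the others. Wls, the carrier that brings Wnt to the surface, was at 70.0 ppm in VitaminA and 18.3 ppm in ATRA.

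Cdx1 and Rspo2 were thus low in all 3 sections against VitaminA. With BMS753, 4 of 61 were higher than in VitaminA (all genes 13.9%) and 5 lower (12.6%). At 20 ppm or more, the largest ratios were 1.95 for Cdx2, another caudal homeobox gene, 1.29 for Tle4, a corepressor, and 1.06 for Prickle1, of planar polarity, and on the lower side -2.45 for Rspo2 and -2.26 for Cdx1. With BMS961+BMS641, 8 of 60 were higher (all genes 10.9%) and 21 lower (29.0%). At the same minimum they were led by Tbx3, a T-box factor, at 2.59, Rspo1 at 2.04 and Tle3 at 1.54, and on the lower side by Cdx1, Rspo2 and Ccnd1 (-1.78), the cell cycle gene cyclin D1. Between BMS753 and ATRA 18 of 56 were higher (all genes 36.2%) and 7 lower (8.57%), from Cdx2 at 3.48 to Kremen1 at -4.04. Of 3 further known feedback or target genes, named after their values were seen, Lgr5 was at 213 ppm in ATRA against 77.6 ppm in VitaminA, while the ligase gene Znrf3 was at 330 against 532 ppm and Sp5 at 0.0120 against 7.06 ppm. Of the 10 genes listed as targets, which include Sp5 and Cdx1, 0 were at least 2-fold higher in ATRA than in VitaminA and 6 lower. Over all genes these shares were 9.58% and 31.9%. The median log2 ratio of the 10 targets was -1.32, and that of all genes -0.60. Against VitaminA, 1 target was higher and 3 lower in BMS753, and 2 higher and 6 lower in BMS961+BMS641.

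Within a section, Tcf7 was the most patterned of the Wnt genes. Moran's I over the 8 nearest spots, which is near 0 for no pattern, was 0.39, 0.11, 0.32 and 0.13, above 99.0% to 99.96% of the genes detected in the same section. In BMS753 a spot's Tcf7 signal ranged from 0 to 65700 ppm of that spot, with a median of 252 ppm, and its quadrants held 1454 to 2656 ppm. Across spots Tcf7 correlated with the number of genes per spot in ATRA, BMS753 and BMS961+BMS641 (Spearman 0.41, 0.45 and 0.48), and the value in VitaminA was -0.01. Spots of a section share a library, so this is a description. The other Wnt genes had a Moran's I of at most 0.10, and the median over all detected Wnt genes was 0.00, 0.01, 0.03 and 0.02, beside 0.01, 0.02, 0.02 and 0.02 for all genes. Between the section edge and its interior the Wnt genes went both ways, with a median log2 difference (edge minus interior) of 0.03, -0.04, -0.09 and 0.02 over the Wnt genes and of 0.00, -0.01, 0.00 and 0.00 over all genes. The range was set by Frzb in BMS961+BMS641, at 20.5 ppm on the edge and 5.26 ppm inside (1.78), and Wnt2b in BMS753, at 5.14 and 13.7 ppm (-1.26). Wnt7a in BMS961+BMS641 was at 69.5 and 27.9 ppm (1.29), and the difference for Frzb in ATRA was -1.18. Detection differed less than level. In BMS961+BMS641, Frzb was in 18.6% of edge and 12.2% of interior spots, and Wnt7a in 41.8% and 36.2%. Wnt2b was in 5.58% and 8.82% in BMS753, and Frzb in 17.7% and 20.5% in ATRA.

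**Figure D4:**
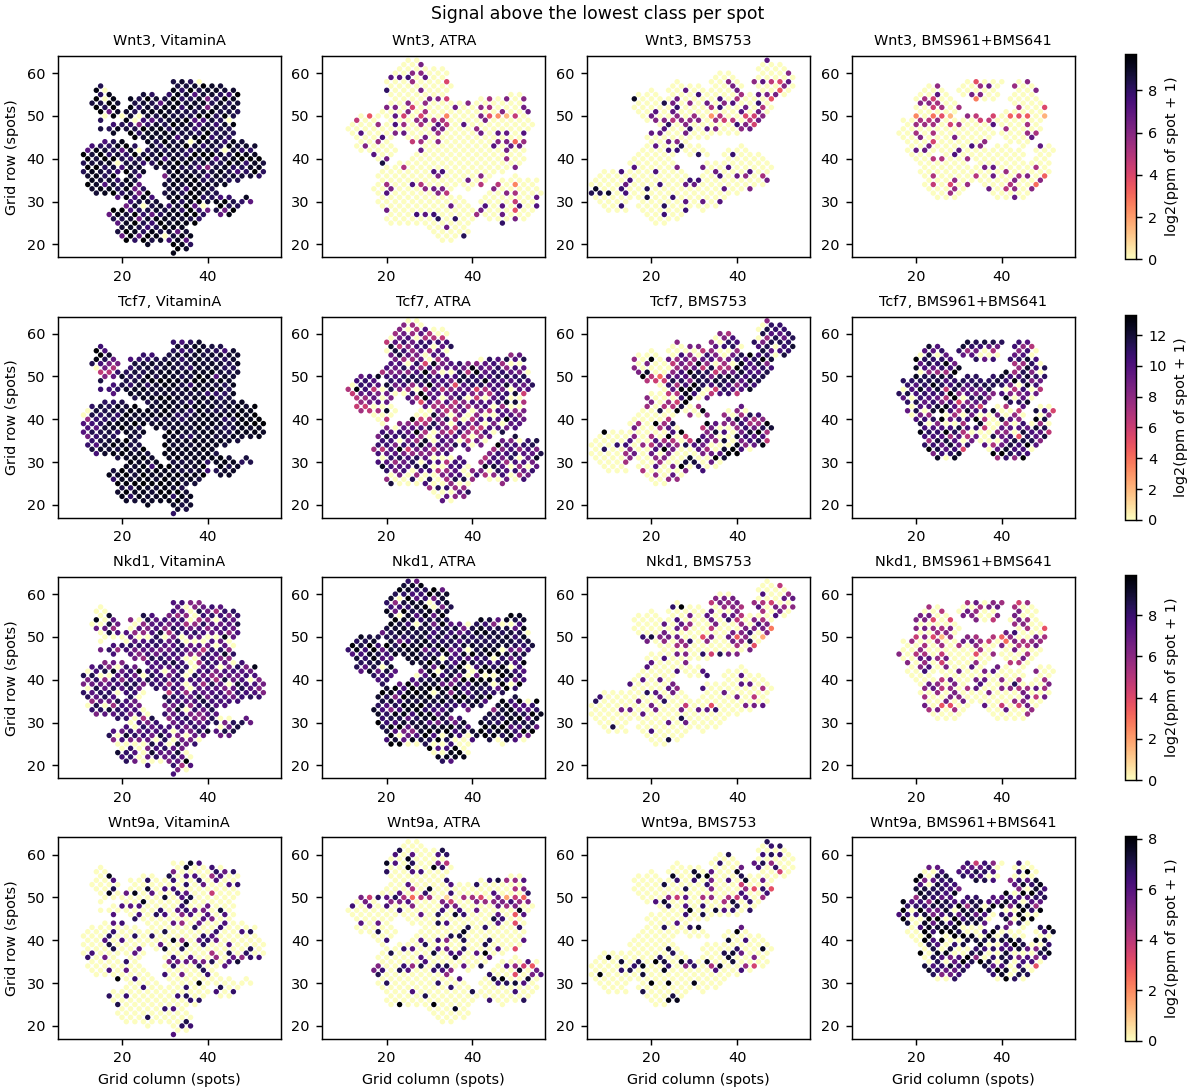
Signal above the lowest class in each spot, as log2 of ppm of the spot plus 1, for Wnt3, Tcf7, Nkd1 and Wnt9a (rows) in the 4 sections (columns), on the array grid; the colour scale is shared along a row. Wnt3 fills VitaminA (97.3% of spots), Nkd1 ATRA (92.6%) and Wnt9a BMS961+BMS641 (74.5%), and Tcf7 is concentrated in parts of BMS753.

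The number of Wnt genes in a spot followed the number of all genes there, with a Spearman correlation of 0.83, 0.86, 0.88 and 0.90. The median spot held 13, 8, 9 and 11 of the 44. Along grid row 50 the median was 20 Wnt genes with ATRA, 17 with BMS753 and 24.5 with BMS961+BMS641, where the row had the most genes per spot of all grid rows. In VitaminA it was 7.5, and the row was number 35 of 36. Leaving this row and grid column 34 out moved no count of higher or lower Wnt genes by more than 2.

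Detection also followed the span of a gene, from its first to its last annotated base in RefSeq GRCm38.p6. The 13 Wnt genes under 10 kb were detected in a median of 5.80%, 2.02%, 4.48% and 3.29% of spots in the 4 sections, and the 15 over 40 kb in 52.4%, 29.7%, 33.9% and 38.9%. All genes showed the same relation, with medians of 2.36% and 43.3% for the same spans in VitaminA. Over genes the Spearman correlation of span and detection was 0.73 to 0.78 for the Wnt genes and 0.80 to 0.84 for all genes; genes are not independent replicates. Most Frizzled genes are short, and the part of this relation in their low detection was not tested.

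**Figure D5:**
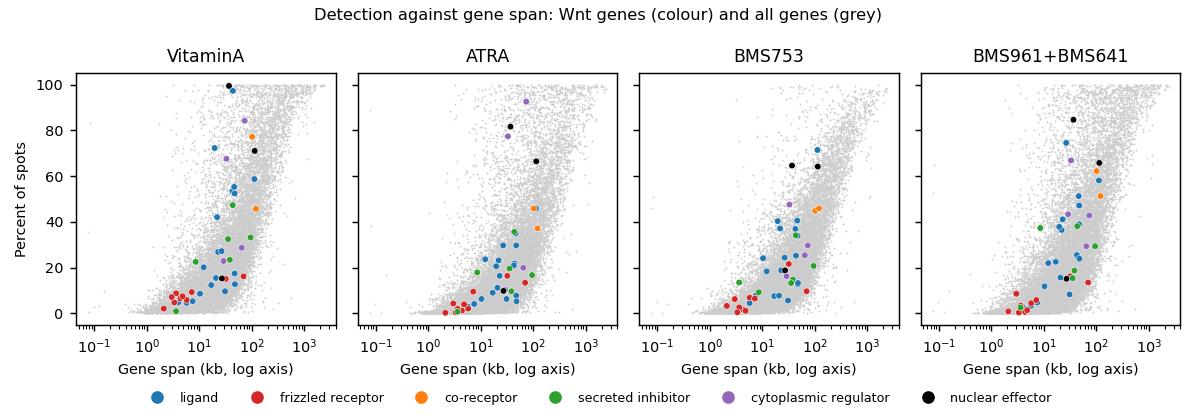
Percent of spots with the gene detected against gene span in kb on a log axis, 1 panel per section, with all genes in grey and the Wnt genes coloured by role. Most Frizzled genes (red) lie at the short end, except Fzd3 and Fzd6. Wnt3 in VitaminA (97.3%) lies above the median of all genes over 40 kb (43.3%). Wnt9a in BMS961+BMS641 (74.5%) lies above the median of all genes of 10 to 40 kb (11.8%).

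Of the ligand genes, 4 pairs are neighbours in the RefSeq order. Wnt3 lies beside Wnt9b, with overlapping spans, and at 464 ppm of Wnt3 in VitaminA its neighbour Wnt9b was at 7.82 ppm. Wnt3a lies beside Wnt9a: in BMS961+BMS641 Wnt9a was at 112 ppm and Wnt3a at 13.2 ppm, and in VitaminA 27 and 61.6 ppm. Whether the counting used strand is not given in the sources used here, so reads in the overlap of Wnt3 and Wnt9b cannot be told apart. Wnt6 with Wnt10a and Wnt10b with Wnt1 form the other pairs, all at 25.8 ppm or less.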

How the data were processed

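The 4 deposited matrices hold a signal per gene and spot that the authors quantile normalised, per the file names and as checked on the values: the spots of a section share 1 set of sorted values times a factor per spot. Per the submitters' processing notes, reads were placed on mm9; the aligner, counting and filters were not given in the sources used here. Within a spot, runs of values rising in row order were taken as ties split by row order. In all spots but 1 of each section, every exact 0 lay in an earlier row than every value of the lowest such class, which was therefore set to 0; it held 5.64% to 13.8% of the signal. Levels are ppm of the remaining signal; log2 ratios add a pseudocount of 1 ppm, need 5 ppm or more on one side, and are called at 2-fold. Quadrants were cut at median grid positions. Genes were described in full if above the lowest class in at least 20% of spots of any section, or at 20 ppm or more with a log2 ratio of 2 or more in size; up to 3 further pathway genes per direction were named by ratio. The members and lists were chosen with earlier results of these data known. For the ratios 11 alternatives were run, 1 of them (leaving out a grid row and column) chosen after seeing the data. The scripts were tested on simulated data. Software was scipy 1.17.1, pandas 2.3.3, numpy 2.4.6 and matplotlib 3.10.9 under Python 3.11.15. Reads and other data types of the series were not analysed here.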

Additional observations from a re-analysis of the deposited data

How the results depend on the processing

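Among the genes described in full, 40 ratios were at least 2-fold. Over the 7 alternatives that can turn a sign, 280 of 280 values kept it, and over the 9 that can move a ratio, 296 of 360 stayed at least 2-fold; the percent of spots kept 18 of 40 and ratios relative to the all-gene median 26 of 40. Of 17 further 2-fold ratios, 1 turned direction, Fzd1 in BMS753 against VitaminA, at 0.66 on the values as deposited. On the percent of spots the counts were 0 higher in ATRA against VitaminA, 2 higher in BMS753 against VitaminA, and 5 higher and 1 lower in BMS753 against ATRA. Relative to the all-gene median they were 3 higher and 6 lower in ATRA against VitaminA and 7 higher in BMS753 against ATRA. With a pseudocount of 5 ppm, 7 were lower in ATRA, and 3 higher and 3 lower in BMS753, against VitaminA. With at least 20 ppm in either section, fewer genes remained: 1 higher and 5 lower in BMS753 and 5 lower in BMS961+BMS641 against VitaminA, and 7 higher in BMS753 against ATRA. Interior spots gave 2 higher in ATRA against VitaminA, and tie classes 1 lower in BMS753 against ATRA. All other counts stayed within 1.5 times. Except where fewer genes remained, the cause was not tested. Read depth is unknown, so what it limits was not measured. No paired analysis was possible because each group is 1 section.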

Other observations

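Column 34 of the array grid had the most or second most genes per spot of all grid columns in the 4 sections, with medians of 6083, 5829, 6152 and 7355 in VitaminA, ATRA, BMS753 and BMS961+BMS641. Row 50 was first among rows in 3 sections, with medians of 7684, 7249 and 9690 genes in ATRA, BMS753 and BMS961+BMS641, against 3310, 3266 and 4360 in the remaining spots. In VitaminA the row held a median of 2876 genes, against 4714 in the other spots.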
